A study of Mus musculus with 40 samples.

Results

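The 10 genes described here are imprinted genes that act in fetal growth: H19, Igf2, Dlk1, Meg3, Rian, Mirg, Peg3, Plagl1, Cdkn1c and Mest. They were taken by gene symbol from the 22676 genes in the deposited table, and each symbol matched 1 row. The study sequenced bulk RNA from 40 left ventricles of FVB/NJ mice, in 8 groups of 5 that combined genotype, surgery and sex. ONOFF mice carried an inducible dominant-negative OGA, restricted to the heart, and Con mice were the controls. OGA strips the sugar O-GlcNAc off proteins. Con and ONOFF mice alike were fed doxycycline for 2 weeks and then standard chow for 2 weeks. They then had TAC (transverse aortic constriction), which narrows the aorta and so overloads the ventricle, or sham surgery (Sham), and the ventricle was taken after 9 weeks. The 4 conditions were thus ONOFF TAC, ONOFF Sham, Con TAC and Con Sham, each with 5 female (F) and 5 male (M) libraries. The age of the mice, the promoter that drove the transgene and the transgenes of the controls are not given in the sources used here.

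Imprinted genes are read mainly from the copy inherited from a single parent, which methylation of nearby control regions fixes in the germ line. Paternally expressed members such as Igf2, Dlk1, Peg3, Plagl1 and Mest are known for promoting fetal growth, while maternally expressed H19 and Cdkn1c are known for restraining it. Many of these genes are strongly expressed in the fetal heart and decline after birth, and part of the fetal gene programme returns in a heart under pressure overload.

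The promoter sequences are shown for the members whose changes or windows carry a point made further on. RefSeq windows of 300 bases (GRCm38.p6, 250 before to 50 after a transcript start) were at hand for 8 of the 10 members, all except H19 and Cdkn1c. Plagl1 (chr10:13090582-13090881, plus strand) and Igf2 (chr7:142657447-142657746, minus strand, 1 of its 4 windows) are given because both genes were lower in ONOFF TAC than in ONOFF Sham ventricles. Meg3 (chr12:109540746-109541045, plus strand) and Peg3 (chr7:6730370-6730669, minus strand) are given because each holds the cAMP response element TGACGTCA. Capitals mark that element, GGGCGG (GC box), CCAAT and TATAAA, each searched on both strands, and the pair of TATAAA matches in Meg3 overlap. A further Meg3 window (chr12:109545148-109545447, plus strand), not printed, held no match.
Plagl1: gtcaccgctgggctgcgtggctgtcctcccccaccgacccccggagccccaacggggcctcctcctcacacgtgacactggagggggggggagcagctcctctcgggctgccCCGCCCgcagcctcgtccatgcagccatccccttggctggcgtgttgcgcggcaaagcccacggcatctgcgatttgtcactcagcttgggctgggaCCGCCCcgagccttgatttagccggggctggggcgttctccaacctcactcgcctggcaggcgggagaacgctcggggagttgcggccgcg
Igf2: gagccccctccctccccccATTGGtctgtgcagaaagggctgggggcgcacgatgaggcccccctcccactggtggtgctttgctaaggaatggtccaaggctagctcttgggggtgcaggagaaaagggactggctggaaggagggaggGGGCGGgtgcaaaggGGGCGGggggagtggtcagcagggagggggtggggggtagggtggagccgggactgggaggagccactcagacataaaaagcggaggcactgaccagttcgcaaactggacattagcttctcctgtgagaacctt
Meg3: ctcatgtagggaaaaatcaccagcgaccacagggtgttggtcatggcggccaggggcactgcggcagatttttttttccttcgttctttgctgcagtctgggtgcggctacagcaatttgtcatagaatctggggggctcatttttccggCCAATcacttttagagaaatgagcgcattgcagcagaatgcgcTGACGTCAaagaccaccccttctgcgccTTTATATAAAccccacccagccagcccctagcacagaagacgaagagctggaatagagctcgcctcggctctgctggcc
Peg3: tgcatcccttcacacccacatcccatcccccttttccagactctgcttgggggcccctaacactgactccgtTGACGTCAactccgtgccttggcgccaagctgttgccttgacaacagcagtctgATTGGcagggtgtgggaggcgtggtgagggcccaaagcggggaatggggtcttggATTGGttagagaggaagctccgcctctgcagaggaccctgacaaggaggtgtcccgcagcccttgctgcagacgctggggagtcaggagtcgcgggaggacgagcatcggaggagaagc
Over all 32544 promoter windows of the table, 1.8% held TGACGTCA, 13.6% TATAAA, 35.9% GGGCGG and 37.4% CCAAT. The Plagl1 window held 26 CpG dinucleotides, against a median of 7 over all windows, and the 4 Igf2 windows held 2, 14, 24 and 7, the last being the one printed. That Igf2 window is shown because it held the most matches of the 4, 3 in all, while the others held 0 or 1. These matches describe the letters in the windows, and no binding or methylation was measured.

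Several of these genes also carry microRNAs within their bodies. The mature microRNAs inside H19 and Igf2 are shown because those host genes varied together between ventricles (described further on). H19 holds miR-675 (5p arm chr7:142577112-142577133, 3p arm chr7:142577078-142577099) and Igf2 holds miR-483 (5p arm chr7:142654968-142654989, 3p arm chr7:142654932-142654952), all on the minus strand of GRCm38.p6 in RefSeq. Capitals mark the seed, bases 2 to 8, the stretch that pairs with target messages.
mmu-miR-675-5p: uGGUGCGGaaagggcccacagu
mmu-miR-675-3p: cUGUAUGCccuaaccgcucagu
mmu-miR-483-5p: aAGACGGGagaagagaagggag
mmu-miR-483-3p: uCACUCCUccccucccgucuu
The 4 seeds all differ from one another. Mest holds miR-335, and the noncoding Meg3, Rian and Mirg have 1, 3 and 10 hairpins listed in the same RefSeq table. For Meg3 the listed hairpin does not cover all its mature microRNAs, which are 3: miR-1906 and, at a separate place, both arms of miR-770. Mature microRNAs were not measured in these libraries.

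The deposited values are normalized counts, which summed to between 35176220 and 47653987 per library. Sequencing depth before normalization is unknown, so no counting interval can be given. Oga averaged 3816 normalized counts in ONOFF TAC, 5778 in ONOFF Sham, 2988 in Con TAC and 3121 in Con Sham libraries. Nppa, a gene of cardiac load, averaged 144200 in ONOFF TAC, 11470 in ONOFF Sham, 48570 in Con TAC and 9399 in Con Sham libraries. The cardiomyocyte markers Myh6, Tnnt2, Actn2, Ryr2 and Tnni3 were high in every library. Summed markers of the atrium ranged from 68.4 to 26000, with medians of 193 in ONOFF TAC, 2032 in ONOFF Sham, 98.7 in Con TAC and 1367 in Con Sham libraries. In 3 of the Con Sham libraries, female replicates 3 and 5 and male replicate 4, 5782 to 6920 genes were listed at 0, more than in any other library. The 5th percentile of the values above 0 was 5.5, 4.21 and 8.87 in them, and at most 2.41 in any other library. Low values in these 3 libraries are thus coarser than elsewhere, and the cause was not tested. In Con TAC F replicates 2 and 3, Xist, normally high in females, was 51.7 and 6.72. Their summed markers of the Y chromosome were 15.96 and 12.81, within the range of the other female libraries (8.2 to 72.89). Male libraries had 2405 to 5826. The cause of the low Xist in these 2 libraries was not tested. Calls of members and named genes that are lost without these 3, these 2 or all 5 libraries are given as such. In bulk tissue, fewer cells of a type and less RNA per cell cannot be told apart.

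**Figure D1:**
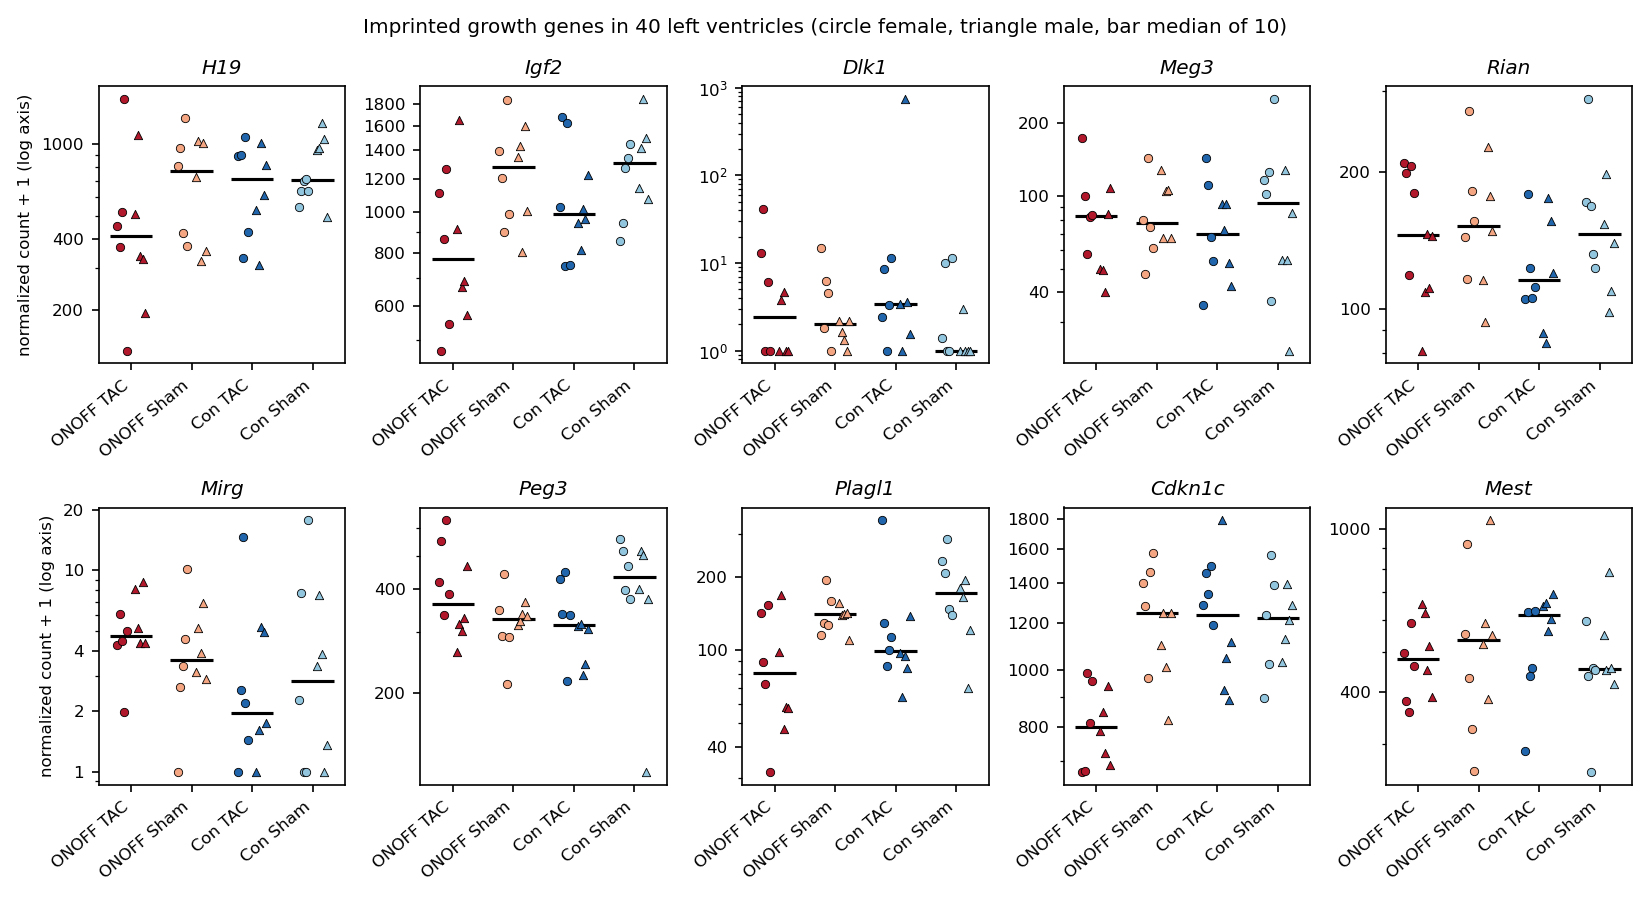
Normalized counts plus 1 (log axis) of the 10 imprinted genes in ONOFF TAC, ONOFF Sham, Con TAC and Con Sham ventricles, with circles for female and triangles for male libraries and a bar at the median of 10. All 10 ONOFF TAC libraries had at most 987 normalized counts of Cdkn1c, and 1 Con TAC library stands far above the rest for Dlk1.

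Most members were readily detected in the adult ventricle. Genes were tested where a value of at least 10 was reached in at least 5 libraries, and 9 of the 10 members passed, among 16395 genes in all. Mirg, the microRNA host RNA at the end of the Dlk1-Dio3 cluster, did not pass, with 0 to 16.8 normalized counts and 6 libraries listed at 0. Dlk1 passed with a median of only 0.991 normalized counts and 15 of 40 libraries listed at 0. The other 8 members were above 0 in all 40 libraries. Among these 8, Cdkn1c spanned the narrowest range, its highest library 2.67 times its lowest, and H19 the widest, at 11.7 times.

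Pressure overload in ONOFF mice lowered 3 of the 9 tested members and raised none. The 3 were Cdkn1c, Plagl1 and Igf2. By limma's moderated test with Benjamini-Hochberg adjustment over all tested genes, a gene was called at an adjusted p below 0.05, and 21.2% of all tested genes were called in that comparison (10.6% lower, 10.7% higher). The count of 3 of 9 is to be read against that background. The median log2 change was −0.14 over the 9 members and 0.0063 over all tested genes.

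Cdkn1c encodes p57Kip2, an inhibitor of cyclin-dependent kinases that stops cell division, and is read from the maternal copy in the imprinted cluster of distal mouse chromosome 7. Its lowest, median and highest values were 670.7, 799 and 987 normalized counts in ONOFF TAC libraries and 820, 1248 and 1576 in ONOFF Sham libraries. The ranges overlapped, but 8 of the 10 ONOFF Sham libraries lay above every ONOFF TAC library. In Con mice the values were 887, 1239 and 1791 after TAC and 894, 1224 and 1562 after sham surgery, ranges that almost coincide. In ONOFF mice Cdkn1c fell to 808.5 ± 121 after TAC, against 1212 ± 237 after sham surgery (SD, n = 10 each). The log2 change was −0.57 (SE 0.114, 95% interval −0.80 to −0.34, limma adjusted p = 0.000212), and 10 of 10 ONOFF TAC libraries lay below the ONOFF Sham mean of their sex.

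Cdkn1c was also lower in ONOFF TAC than in Con TAC ventricles. It averaged 808.5 ± 121 normalized counts in ONOFF TAC and 1253 ± 281 in Con TAC libraries (SD, n = 10 each). The log2 change was −0.61 (SE 0.114, 95% interval −0.84 to −0.38, limma adjusted p = 0.000463), and 10 of 10 ONOFF TAC libraries lay below the Con TAC mean of their sex. It was the 1 member of 9 called between genotypes after TAC, where 7.97% of all tested genes were called (3.82% lower, 4.14% higher). Both calls of Cdkn1c share the ONOFF TAC libraries. They held in each of 54 alternative settings, with log2 changes from −0.63 to −0.54 between ONOFF TAC and ONOFF Sham and from −0.65 to −0.45 between ONOFF TAC and Con TAC.

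In order of their means, ONOFF TAC was lowest for Cdkn1c, and ONOFF Sham (1212), Con TAC (1253) and Con Sham (1216) did not differ beyond their spread. In Con mice the log2 change with TAC was 0.03 (SE 0.114, 95% interval −0.20 to 0.26, limma adjusted p = 0.925). The TAC effect in ONOFF minus that in Con was −0.60 (SE 0.161, 95% interval −0.93 to −0.28), which did not pass (limma adjusted p = 0.0734). That difference was called without Con TAC M replicate 2 (adjusted p = 0.0474) or without ONOFF Sham F replicate 3 (0.0462).

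Markers of cell types moved in the same libraries as Cdkn1c and the other called members. Summed fibroblast markers were 68000 to 95580 in ONOFF TAC, 44380 to 63250 in ONOFF Sham and 42390 to 76230 in Con TAC libraries. Summed cardiomyocyte markers were 1094000 to 1617000 in ONOFF TAC, 1480000 to 2389000 in ONOFF Sham and 1245000 to 2830000 in Con TAC libraries. Of the 7 fibroblast markers, 4 were called higher and 1 lower with TAC in ONOFF mice, and of the 5 cardiomyocyte markers 1 was higher and 3 were lower. The 5 endothelial markers gave no call in either comparison, with Pecam1, Cdh5, Kdr, Tie1 and Emcn all tested. Of 4 tested Schwann cell and nerve markers 3 were lower with TAC in ONOFF mice, and of 5 macrophage markers 1 was higher. Beside these, 10.7% of all tested genes were called higher and 10.6% lower in that comparison. Between ONOFF TAC and Con TAC, 3 fibroblast markers were called higher and 0 lower, and 2 cardiomyocyte markers lower and 0 higher. Of the nerve markers 1 (Dbh) was lower, a call lost without the 5 libraries named above. Also lower were 1 smooth muscle and pericyte marker and 1 skeletal muscle marker. Of all tested genes 4.14% were called higher and 3.82% lower there. Mitochondrial transcripts made up 13.4% to 19.4% of the normalized counts in ONOFF TAC, 17.4% to 21.4% in ONOFF Sham and 8.28% to 19.3% in Con TAC libraries. The lowest share, 8.28%, was in Con TAC M replicate 1, the library with the highest Cdkn1c value (1791), and without it the log2 change of Cdkn1c between ONOFF TAC and Con TAC was −0.53 (limma adjusted p = 0.000958). The part of these cell types and of the mitochondrial share in the lower values of Cdkn1c, Plagl1 and Igf2 was not tested. With the summed atrial markers as a covariate, the log2 change with TAC in ONOFF mice was −0.61 for Cdkn1c, −0.75 for Plagl1 and −0.63 for Igf2, all called. That covariate was chosen after the data were seen, and its medians were 193 in ONOFF TAC and 2032 in ONOFF Sham libraries. The part of atrial tissue in the lower values was not tested either.

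Plagl1, also called Zac1, encodes a zinc finger transcription factor known in the mouse as a regulator of a network of imprinted genes that includes Igf2, H19 and Cdkn1c. Its lowest, median and highest values were 30.6, 79.8 and 166.5 normalized counts in ONOFF TAC libraries and 109, 139 and 193 in ONOFF Sham libraries. The ranges overlapped, and 7 of the 10 ONOFF TAC libraries lay below every ONOFF Sham library. Con TAC libraries had 63.3, 97.9 and 340.4, and Con Sham libraries 68.6, 171 and 285. Plagl1 fell to 90.8 ± 47.6 in ONOFF TAC, against 140 ± 24.2 in ONOFF Sham ventricles (SD, n = 10 each), by 0.79 on the log2 scale (SE 0.254, 95% interval −1.30 to −0.27, limma adjusted p = 0.0212, 8 of 10 libraries lower). The call was lost without ONOFF TAC F replicate 5 (adjusted p = 0.0644) or ONOFF TAC M replicate 3 (0.0519). In Con mice the log2 change was −0.55 (SE 0.254) and did not pass (limma adjusted p = 0.209), and the difference between the genotypes in this effect was −0.23 (SE 0.359, adjusted p = 0.864).

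Igf2 encodes insulin-like growth factor 2, a paternally expressed growth factor of the embryo that signals through the type 1 IGF receptor. Its lowest, median and highest values were 471, 774 and 1651 normalized counts in ONOFF TAC libraries and 807, 1276 and 1835 in ONOFF Sham libraries. The groups overlapped broadly, with 5 ONOFF TAC libraries below the lowest ONOFF Sham library. Con TAC libraries had 748, 991 and 1678, and Con Sham libraries 855, 1305 and 1851. Igf2 fell to 874 ± 373 in ONOFF TAC, against 1251 ± 329 in ONOFF Sham ventricles (SD, n = 10 each), a log2 change of −0.58 (SE 0.193, 95% interval −0.97 to −0.19, limma adjusted p = 0.0265, 8 of 10 libraries lower). In Con mice the log2 change was −0.27 (SE 0.193, adjusted p = 0.468).

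The call of Igf2 rested on small margins. It was lost when 1 of 6 libraries was left out: ONOFF TAC F replicate 2 (adjusted p = 0.0682), F replicate 5 (0.0619), M replicate 3 (0.0534) or M replicate 5 (0.0579), or from the sham group female replicate 4 (0.0632) or male replicate 4 (0.0552). It was also lost with only the groups compared in the fit (0.0554) and with library weights (log2 change −0.40, 0.0874).

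H19 is the maternally expressed noncoding RNA next to Igf2, and the 2 genes share enhancers and an imprinting control region. Its lowest, median and highest values were 133, 410 and 1563 normalized counts in ONOFF TAC, 322, 769 and 1288 in ONOFF Sham, 307, 712.5 and 1079 in Con TAC and 491, 704 and 1229 in Con Sham libraries. The ONOFF TAC libraries span the widest range, with 8 at or below 515 and 2 (M replicate 2 and F replicate 4) at 1100 and 1563. The mean was 549 ± 444 in ONOFF TAC and 730 ± 347 in ONOFF Sham libraries (SD, n = 10 each), and the log2 change of −0.60 (SE 0.342, 95% interval −1.29 to 0.10) did not pass (limma adjusted p = 0.236). No comparison of H19 passed.

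**Figure D2:**
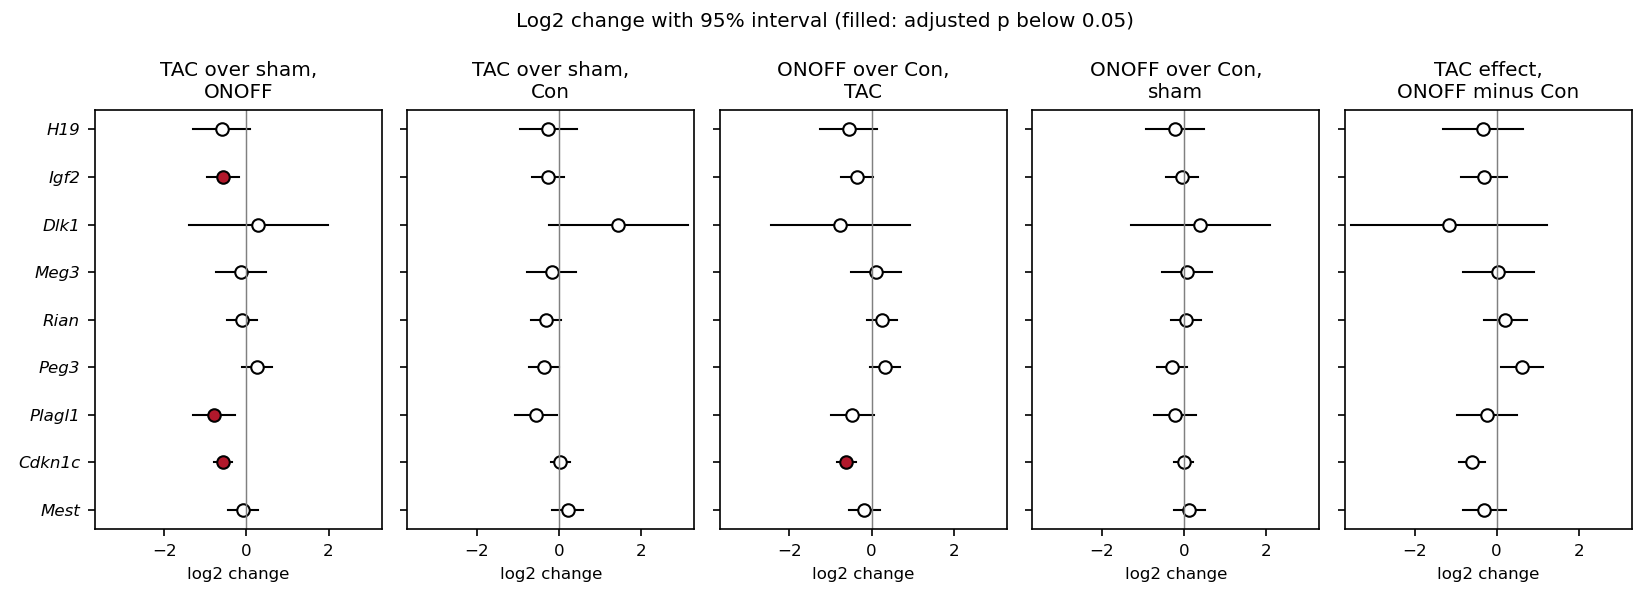
Log2 change (points) with its 95% interval (lines) of the 9 tested imprinted genes in 5 comparisons, with filled points at an adjusted p below 0.05. Filled points are Igf2, Plagl1 and Cdkn1c for TAC over sham in ONOFF mice and Cdkn1c for ONOFF over Con after TAC, all left of 0.

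H19 and Igf2 varied together from ventricle to ventricle. After the mean of each of the 8 groups was subtracted from the log2 values, Pearson's r was 0.83 and Spearman's rho 0.84 over 40 libraries, each with a permutation p of 1e-05, the smallest that 100000 resamples can give. All 45 pairs of the 10 members were compared, and the Benjamini-Hochberg adjusted p of this pair was 0.00045 by either measure. It was the 1 pair called. Without the 2 libraries farthest from the median of H19, r was 0.83. Within conditions of 10 libraries r was 0.84 in ONOFF TAC, 0.93 in ONOFF Sham, 0.81 in Con TAC and 0.69 in Con Sham. The libraries highest for both genes included ONOFF TAC M replicate 2, with 1100 of H19 and 1651 of Igf2, and ONOFF Sham F replicate 4, with 1288 and 1835. ONOFF TAC F replicate 5 was low for both, with 133 and 544.

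No other pair passed the correction. H19 and Plagl1 had an r of 0.53 (permutation adjusted p = 0.123), which was 0.36 without the 2 farthest libraries. Rian and Cdkn1c had an r of −0.47 (permutation adjusted p = 0.124). Meg3 and Rian, neighbours in a single cluster, had an r of 0.40 (permutation adjusted p = 0.176). Igf2 and Cdkn1c, which lie in the same part of chromosome 7, had an r of 0.25 (permutation adjusted p = 0.313).

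**Figure D3:**
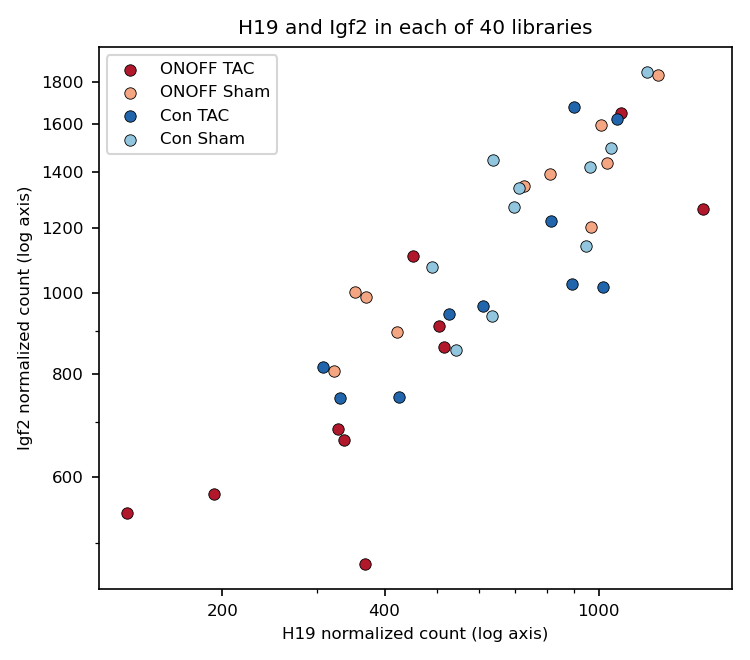
H19 against Igf2 in normalized counts, both on log axes, with 1 point per library coloured by condition. The points of all 4 conditions rise together with some scatter. ONOFF TAC F replicate 5 is lowest for H19 (133, with 544 of Igf2) and ONOFF TAC F replicate 4 highest (1563, with 1263). Con Sham M replicate 3 is highest for Igf2 (1851, with 1229 of H19).

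The members of the Dlk1-Dio3 cluster of mouse chromosome 12 gave no call in any comparison. Meg3 and Rian are noncoding RNAs read from the maternal copy there, and Rian hosts small nucleolar RNAs. Meg3 averaged 81.9 ± 39.2 normalized counts in ONOFF TAC, 87.1 ± 31.3 in ONOFF Sham, 75.6 ± 33.9 in Con TAC and 97 ± 66.3 in Con Sham libraries (SD, n = 10 each). Rian averaged 149 ± 45.6, 162 ± 54, 124 ± 33.8 and 157 ± 55 in the same order of conditions. For either gene the 4 conditions overlapped throughout. The log2 change with TAC was −0.14 for Meg3 and −0.11 for Rian in ONOFF mice, and −0.18 and −0.32 in Con mice, with limma adjusted p from 0.341 to 0.806. Mirg had at most 7.78 normalized counts in ONOFF TAC, 9.21 in ONOFF Sham, 13.6 in Con TAC and 16.8 in Con Sham libraries.

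Dlk1 encodes a membrane protein of the Notch ligand family, known for holding preadipocytes and muscle precursors in an undifferentiated state. In 39 libraries it had 0 to 39.8 normalized counts, with a median of 0.829. Con TAC M replicate 3 alone had 749.5. Markers of skeletal muscle were also high in that library, where their sum was 3725, against at most 533 and a median of 64.5 in the other 39. There the fast myosin Myh4 had 1576 normalized counts, against at most 6.43 elsewhere, the fast troponin Tnnt3 642, the calcium buffer Pvalb 340.5 and the sarcomere protein Actn3 290. Myog and Myod1, regulators of muscle precursors, were listed at 0 in it, and Adipoq, a marker of fat cells, was at 16.2, below its median of 57.1 in the others. The part of skeletal muscle RNA in the Dlk1 value was not tested. Dlk1 passed no test, and its log2 change between genotypes after TAC was −0.76 with this library and 0.09 without it.

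**Figure D4:**
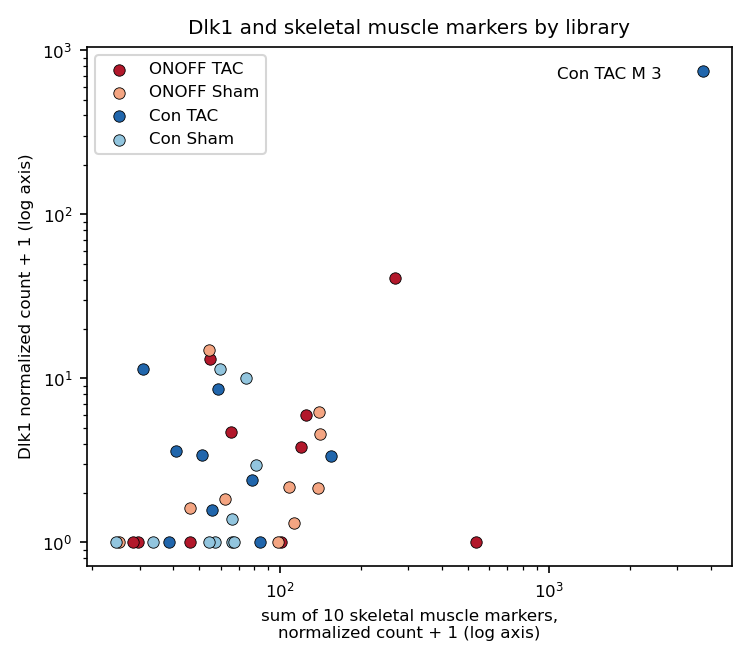
Dlk1 against the sum of 10 skeletal muscle markers, both as normalized counts plus 1 on log axes, with 1 point per library. Con TAC M replicate 3 stands alone at the upper right, at 749.5 for Dlk1 and 3725 for the markers.

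Peg3 and Mest, both read from the paternal copy, did not pass in any comparison of the reported fit, though Peg3 did under other settings. Peg3 encodes a zinc finger protein, studied in the mouse for its part in growth and maternal care. Its lowest, median and highest values were 262, 361 and 633 normalized counts in ONOFF TAC, 211, 328 and 442 in ONOFF Sham, 216, 313 and 446 in Con TAC and 117, 432 and 557 in Con Sham libraries. A single library, Con Sham M replicate 4, set the low end of its group, where the other 9 lay between 372.5 and 557. That library is 1 of the 3 with many genes listed at 0.

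With all libraries, the log2 change of Peg3 with TAC was 0.27 in ONOFF mice (SE 0.18, limma adjusted p = 0.331) and −0.36 in Con mice (SE 0.18, adjusted p = 0.266). In Con mice 10 of 10 TAC libraries lay below the Con Sham mean of their sex. Without Con Sham M replicate 4 the change in Con mice was −0.55 and was called (limma adjusted p = 0.0123). Without the 3 libraries with many zeros it was −0.63 (adjusted p = 0.00786). The TAC effect in ONOFF minus that in Con was 0.62 (SE 0.254, adjusted p = 0.301) with all libraries, and it was called when Con Sham M replicate 4 was left out (adjusted p = 0.0361) and without those 3 libraries (0.0227). With library weights, which keep every library, the change in Con mice was −0.50 (adjusted p = 0.0148) and the difference was called too (0.0376).

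Mest encodes a protein of the hydrolase fold and is known as a marker of growing mesoderm. It averaged 492 ± 104 normalized counts in ONOFF TAC, 558 ± 250.5 in ONOFF Sham, 560 ± 128 in Con TAC and 486 ± 137 in Con Sham libraries (SD, n = 10 each). The 4 conditions overlapped, and the log2 change with TAC was −0.09 in ONOFF mice (SE 0.184, limma adjusted p = 0.799) and 0.21 in Con mice (SE 0.184, adjusted p = 0.568). The genes whose values followed Mest most closely over the 40 libraries, after the group means were subtracted, were the replication genes Mcm6 (r = 0.81) and Mcm5 (0.71) and the proliferation marker Mki67 (0.74).

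The same measure, the 3 genes with the highest r over 40 libraries among 11139 genes, was taken for the other members with a mean of at least 50. H19 and Igf2, whose r with each other was higher (0.83), were not ranked for each other here. Their first gene was the same, Scn10a, a sodium channel subunit, at an r of 0.80 with H19 and 0.76 with Igf2. Scn10a averaged 45.4 ± 30 normalized counts in ONOFF TAC, 142 ± 79.3 in ONOFF Sham, 99 ± 48.7 in Con TAC and 124 ± 67.6 in Con Sham libraries (SD, n = 10 each). H19 was followed next by Car3 (0.68) and Myl1 (0.61), and Igf2 by Atp5if1 (0.61) and Gng11 (0.61). Meg3 was closest to Abcc5 (0.72), Adamts10 (0.72) and the intermediate filament gene Vim (0.69). Peg3 was closest to Gprc5b (0.80), Elf1 (0.76) and Polk (0.76), Rian to Tmem254 (0.64), Plagl1 to Gpm6a (0.63) and Cdkn1c to Hnrnpa0 (0.62). These correlations describe the libraries and share their normalization.

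In sham-operated mice no member differed between the genotypes, where 0.14% of all tested genes were called (0.0244% lower, 0.116% higher). Their log2 changes, ONOFF over Con, ran from −0.30 for Peg3 to 0.40 for Dlk1, with limma adjusted p from 0.697 to 0.990, and no member reached an unadjusted p below 0.05. In Con mice 0 of 9 members were called with TAC, where 5.78% of all tested genes were called (2.62% lower, 3.17% higher), and 1 member (Plagl1) had an unadjusted p below 0.05. For the TAC effect in ONOFF minus that in Con, 0 of 9 members were called (0.445% of all tested genes, 0.207% lower and 0.238% higher), and 2 members, Cdkn1c and Peg3, had an unadjusted p below 0.05.

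Sex was compared over all 4 conditions. Of the 9 members 0 were called between female and male libraries, where 3.98% of all tested genes were called (1.99% higher and 1.99% lower). Mest averaged 470 ± 156 normalized counts in female and 578 ± 154 in male libraries (SD, n = 20 each), a log2 change of −0.32 (SE 0.13, unadjusted p = 0.0174, limma adjusted p = 0.153). Rian averaged 163 ± 52.2 in female and 133 ± 39.6 in male libraries, and Peg3 399 ± 111 and 333 ± 92.2, and neither passed (limma adjusted p = 0.2 and 0.24). The 4 tests of whether an effect of TAC or genotype differed between the sexes called 0 of 9 members, and 0.0% of all tested genes. In them 0 members had an unadjusted p below 0.05, and 512 to 862 of all tested genes did.

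Igf2 acts through a wider set of receptors and binding proteins, listed as 22 genes of the IGF axis, of which 20 were tested. With TAC in ONOFF mice 8 were called higher and 1 lower, beside 10.7% and 10.6% of all tested genes, and the median log2 change was 0.35 over the list and 0.0063 over all genes. Igf1r, the receptor through which Igf2 signals, had 1515, 1612 and 1947 normalized counts (lowest, median and highest) in ONOFF TAC libraries and 898, 976 and 1423 in ONOFF Sham libraries, which did not overlap. Its log2 change was 0.73 (SE 0.0805, limma adjusted p = 9.99e-09). The secreted binding proteins Igfbp6 and Igfbp7 were higher by 0.86 (SE 0.133) and 0.78 (SE 0.108) on the log2 scale, each in 10 of 10 ONOFF TAC libraries. Igf2r, the receptor that clears Igf2, is itself imprinted and averaged 6337 ± 1088 in ONOFF TAC and 6232 ± 845 in ONOFF Sham libraries (SD, n = 10 each), with a log2 change of 0.015 (limma adjusted p = 0.937).

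In Con mice 3 genes of the IGF axis were called higher with TAC (Igf1r, Irs2 and Igfbp7) and 1 lower (Igfbp3), beside 3.17% and 2.62% of all tested genes, and the median of the list was 0.01. Without the 5 libraries named above, 1 gene of the axis was called higher (Igfbp7) and 1 lower (Irs1), and the adjusted p was 0.344 for Igf1r, 0.177 for Irs2 and 0.0506 for Igfbp3. The calls of Igf1r and Irs2 were also lost without the 3 libraries with many zeros (0.218 and 0.0701) and without the 2 poor in Xist (0.131 and 0.0928). The call of Igf1r in Con mice was also lost in 27 of 40 fits that left out 1 library, with adjusted p of up to 0.0947. Igfbp7 was higher by 0.45 (SE 0.108, limma adjusted p = 0.00857), a call lost without Con TAC F replicates 2 and 3 together (0.06). Between ONOFF TAC and Con TAC, 4 were higher and 1 lower, beside 4.14% and 3.82% of all tested genes. Igf1, the growth factor that shares the receptor, averaged 726.5 ± 243 in ONOFF TAC and 393 ± 85.4 in Con TAC libraries (SD, n = 10 each), a log2 change of 0.85 (SE 0.181, limma adjusted p = 0.00199, 10 of 10 higher). Igf1r was higher by 0.50 (SE 0.0805, adjusted p = 9.37e-05), and those groups did not overlap. Its TAC effect in ONOFF minus that in Con was 0.47 (SE 0.114, limma adjusted p = 0.0479), a call lost in 28 of 40 fits that left out 1 library, with adjusted p of up to 0.0921.

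**Figure D5:**
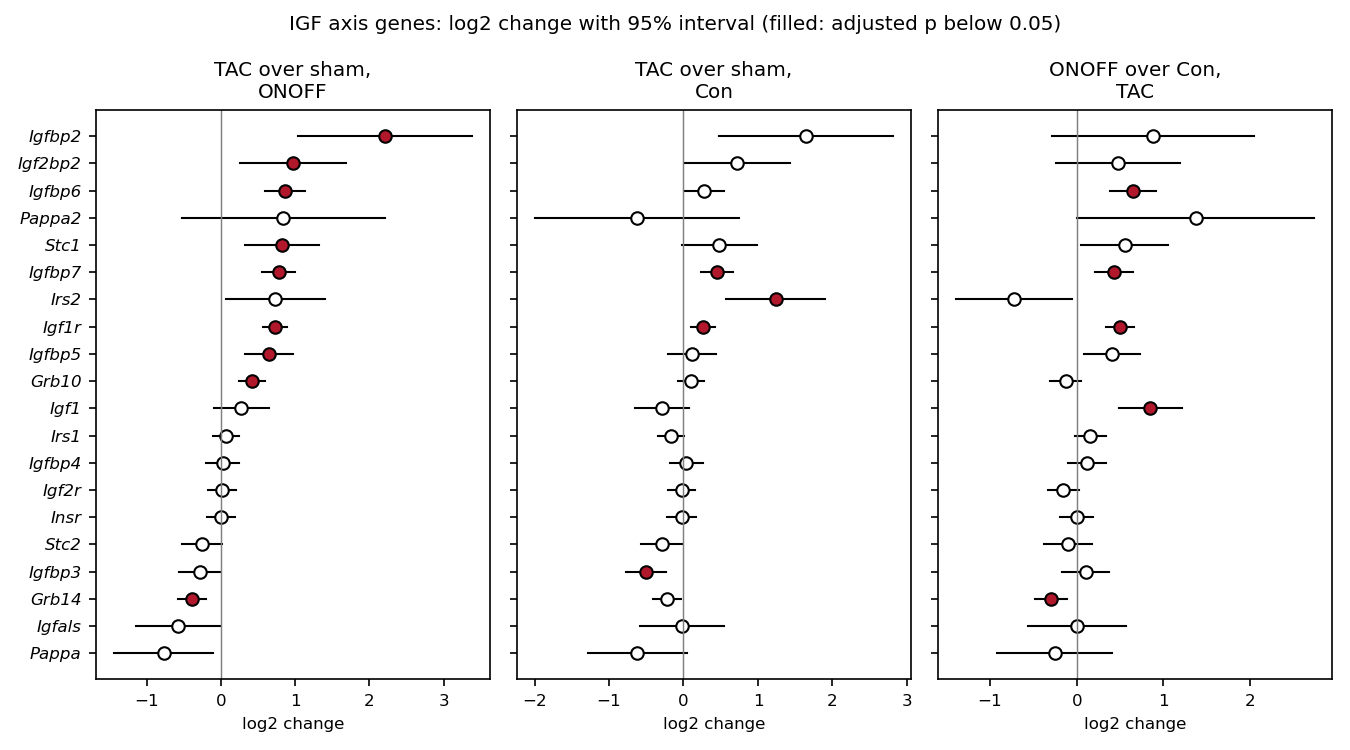
Log2 change (points) with its 95% interval (lines) of 20 IGF axis genes for TAC over sham in ONOFF mice, TAC over sham in Con mice and ONOFF over Con after TAC, with filled points at an adjusted p below 0.05. In ONOFF mice 8 filled points lie right of 0 and 1 left of it, against 3 and 1 in Con mice.

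As an inhibitor of cyclin-dependent kinases, and as a relative of Notch ligands, Cdkn1c and Dlk1 were set beside a list of 21 Notch pathway, CDK inhibitor and cyclin genes that holds neither of them, and all 21 were tested. With TAC in ONOFF mice 4 were called higher and 2 lower, beside 10.7% and 10.6% of all tested genes, and the median log2 change was 0.12. The CDK inhibitors went both ways. Cdkn1a and Cdkn2b were higher by 0.89 (SE 0.245, limma adjusted p = 0.00713) and 0.87 (SE 0.226, adjusted p = 0.00415), each in 10 of 10 ONOFF TAC libraries, where Cdkn1c was lower in 10 of 10. Cdkn2c, a further CDK inhibitor of the list named after its values were seen, was lower (log2 change −0.28, SE 0.103, adjusted p = 0.046, 8 of 10 lower), a call lost in 14 of 40 fits that left out 1 library. The call was also lost with no filter (0.0654), with only the groups compared (0.0611) and with an additive sex term (0.0549). Cdkn2c averaged 286 ± 58 normalized counts in ONOFF TAC, 346 ± 59 in ONOFF Sham, 287 ± 42 in Con TAC and 262 ± 40 in Con Sham libraries (SD, n = 10 each). Unlike for Cdkn1c, ONOFF Sham was thus its highest group, and ONOFF TAC lay near Con TAC. Cdkn1b had a log2 change of −0.21 and did not pass (adjusted p = 0.0699). Ccnd2, a cyclin that drives entry into division, was higher by 0.96 (SE 0.118, adjusted p = 8e-08), and the ONOFF TAC and ONOFF Sham libraries did not overlap. Hey2, a Notch target of the ventricle, was lower by 0.50 in ONOFF mice (log2 change −0.50, SE 0.117, adjusted p = 0.00157) and changed by −0.47 in Con mice (adjusted p = 0.012). The call in Con mice was lost with only the compared groups in the fit (0.0511) and without the 5 libraries named above (0.0766). In Con mice 2 were called higher (Ccnd2 and Dlk2) and 1 lower, beside 3.17% and 2.62% of all tested genes. Without those 5 libraries none of the 3 was called, with adjusted p of 0.131 for Ccnd2 and 0.257 for Dlk2. Both were also lost without the 3 libraries with many zeros (0.0542 and 0.108), and Dlk2 without the 2 poor in Xist (0.0694). Between the genotypes after TAC 3 were called higher and 0 lower, beside 4.14% and 3.82% of all tested genes. There the calls of Cdkn1a and Cdkn2b were lost in 12 and 13 of 40 fits that left out 1 library, and without Con TAC F replicates 2 and 3 together (adjusted p = 0.051 and 0.0924).

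Of the members' neighbours in their imprinted clusters, 30 were tested, and 7 were called with TAC in ONOFF mice (23.3%), beside 21.2% of all tested genes. With TAC in Con mice 2 were called (6.67%), beside 5.78% of all tested genes. Between the genotypes after TAC 2 were called (6.67%), beside 7.97%. With TAC in ONOFF mice the 16 on distal chromosome 7 gave 2 higher and 3 lower calls (31.2%), beside 21.2% of all tested genes. The potassium channel gene Kcnq1 fell to 1155 ± 195 normalized counts in ONOFF TAC, against 1795 ± 127 in ONOFF Sham libraries (SD, n = 10 each), by 0.65 on the log2 scale (SE 0.106, limma adjusted p = 1.18e-05), with no overlap. In Con mice it fell by 0.45 (SE 0.106, adjusted p = 0.00694). Its antisense RNA Kcnq1ot1 averaged 27.1 ± 12 in ONOFF TAC and 32.8 ± 15 in ONOFF Sham libraries. Whether counting used the strand of reads is not given in the sources used here. Tnfrsf23, a decoy death receptor, was higher by 0.94 (SE 0.146, adjusted p = 5.19e-06) in ONOFF mice with TAC and by 0.75 (SE 0.146, adjusted p = 0.000838) in ONOFF over Con after TAC. Of 7 tested neighbours in the Dlk1-Dio3 cluster, 1 (Begain) was called higher in ONOFF mice, by 1.21 (SE 0.338, adjusted p = 0.00739). Another, Dio3, was called higher in Con mice, by 1.95 (SE 0.495, adjusted p = 0.013). Dio3 was low, at 1.8 to 15.2 normalized counts in Con TAC and 0 to 5.22 in Con Sham libraries. Its call was lost with quantile normalization (0.0796) and with library weights (0.0586). It was also lost without the 3 libraries with many zeros (0.0865), the 2 poor in Xist (0.072) or all 5 (0.212). Of 7 tested neighbours of Peg3, Plagl1 and Mest, 1 (Ltv1) was called higher with TAC in ONOFF mice, by 0.22 (adjusted p = 0.00721).

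Other imprinted genes, 38 of them tested, gave 4 higher and 6 lower calls with TAC in ONOFF mice and 0 higher and 2 lower in Con mice. Those are 26.3% and 5.26% of the list, beside 21.2% and 5.78% of all tested genes. Which parental copy was read in these ventricles was not measured for any gene. Slc22a3, an organic cation transporter, averaged 207 ± 56.7 normalized counts in ONOFF TAC, 499 ± 81.4 in ONOFF Sham, 392 ± 92.8 in Con TAC and 560 ± 80.7 in Con Sham libraries (SD, n = 10 each). Its log2 change with TAC was −1.29 in ONOFF mice (SE 0.125, limma adjusted p = 8.35e-10, no overlap) and −0.55 in Con mice (SE 0.125, adjusted p = 0.00569). The call in Con mice was lost without the 5 libraries named above (adjusted p = 0.061). Snrpn, a splicing protein gene, changed by −0.75 in ONOFF mice (SE 0.111, adjusted p = 2.47e-06), and the paraoxonase Pon2 by 0.50 (SE 0.0762, adjusted p = 4.21e-06).

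Grb10, an adaptor that restrains signalling from the insulin and IGF receptors, is imprinted as well and was counted in both lists. It averaged 3020 ± 450 normalized counts in ONOFF TAC, 2254 ± 280 in ONOFF Sham, 3325 ± 682 in Con TAC and 3087 ± 474 in Con Sham libraries (SD, n = 10 each). It was higher with TAC in ONOFF mice by 0.42 (SE 0.0868, limma adjusted p = 0.000385, 9 of 10 higher). In sham-operated mice it was lower in ONOFF than in Con by 0.45 on the log2 scale (log2 change −0.45, SE 0.0868, adjusted p = 0.0221, 10 of 10 lower). That call was lost without Con Sham F replicate 4 (0.0522), its male replicate 2 (0.0565) or ONOFF Sham F replicate 4 (0.065), and without the 3 libraries with many zeros (0.18) or all 5 libraries named above (0.158). Both calls of Grb10 share the ONOFF Sham libraries, the lowest of the 4 conditions. Between ONOFF TAC and Con TAC its log2 change was −0.13 (limma adjusted p = 0.447). Its TAC effect in ONOFF minus that in Con was 0.32 (adjusted p = 0.264), and neither was called. Of 19 tested regulators of imprints, such as DNA methyltransferases and zinc finger proteins, 0 were called higher and 1 lower with TAC in ONOFF mice. That is 5.26% of the list, beside 21.2% of all tested genes. The lower gene was Tet1, a call lost in 7 of 40 fits without 1 library. In the other 4 comparisons that average the sexes 0 were called. There 5.78% of all tested genes were called with TAC in Con mice and 7.97% between genotypes after TAC. The shares were 0.14% between genotypes after sham surgery and 0.445% for the TAC effect in ONOFF minus that in Con.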

How the data were processed

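Stranded libraries were made from 40 left ventricles, per the labels' protocols. Per the submitters' processing notes, FastQC 0.11.7, MultiQC 0.8, STAR 2.7.3a, Salmon, R 4.3.1 and DESeq2 were used with GRCm39. The authors deposited normalized counts (a signal, not whole reads) for 22676 genes in 40 libraries, 41 of the genes without a symbol, and the labels identified each column. Depth is unknown, so precision rests on the spread between libraries. The labels give separate samples, and p-values measure the spread between them.

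Values were taken as log2(value + 1) where a gene reached 10 in 5 or more libraries (16395 genes). The model was limma 3.58.1 (R 4.3.3) on the means of 8 groups, with trend and robust options, and two-sided p was adjusted by Benjamini-Hochberg within each of 10 contrasts. Fold changes on this scale understate the change of low genes. "Lower in 10 of 10" counts libraries below the mean of their own sex in the condition compared. Correlations used 100000 permutations of log2 values with group means removed. The members and lists were chosen with earlier results of these data known. Named genes were all members, up to 4 called genes with the smallest p of each list and comparison, and for members with a mean of at least 50 the 3 genes of highest r (mean at least 100). H19 and Igf2 were not ranked for each other in that last step. Values of Igf2r, Oga, Nppa and Kcnq1ot1 were added as neighbours or checks, and those of Cdkn2c, Cdkn1b, Dbh and Irs1 after they were seen. Zfp264, whose symbol is on 2 rows, was left out of the lists. The fit and the permutations were tested on simulated data.

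The settings varied were the pseudocount (10), the filter (none, or a mean of at least 50), scaling (median of ratios, quantiles), the fit to the compared groups alone, sex as an additive term, the replicate number as a block, the library name's number as a random block (statmod 1.5.0), library weights and the omission of each library. Omitting the 3 libraries with many zeros, the 2 poor in Xist or all 5, correlations without Con TAC M replicate 3, and atrial markers as a covariate were chosen after seeing the data. Promoter and microRNA sequences came from RefSeq (GRCm38.p6). Other software was the package data.table (version 1.17.8), Python 3.11.15, numpy 2.4.6, pandas 2.3.3, scipy 1.17.1 and matplotlib 3.10.9.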

Additional observations from a re-analysis of the deposited data

Results flagged for a closer look

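Among 80 sets of 5 libraries (10 genes in 8 groups), 8 held a library far from the other 4 of its group. Chance alone gives about 1 in 20 where values spread evenly about their mean. Values near 0, such as those of Dlk1 and Mirg, need not do so, and no excess over chance is read from the count. H19 was 1563 normalized counts in ONOFF TAC F replicate 4. Cdkn1c was 1791 in Con TAC M replicate 1. Plagl1 was 340.4 in Con TAC F replicate 1. Rian was 177.6 in Con TAC F replicate 2 and 288 in Con Sham F replicate 2. Dlk1 was 749.5 in Con TAC M replicate 3, the library with high skeletal muscle markers, and 1.98 in Con Sham M replicate 2, where the other 4 were at 0. Mirg was 13.6 in Con TAC F replicate 3.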

How the results depend on the processing

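Both calls of Cdkn1c held in all 54 alternatives, that of Plagl1 in 52 and that of Igf2 in 46, each with the same sign. Of 2676 alternative values of uncalled members, 10 were called and 72 had the other sign. With library weights 1 member was called for TAC in Con and 1 for the interaction (the TAC effect in ONOFF minus that in Con), both Peg3, and likewise without the 3 libraries with many zeros and without all 5 libraries. Leaving out 1 library gave 1 to 3 members called for TAC in ONOFF, 0 to 1 for TAC in Con and 0 to 1 for the interaction. With group means kept 6 pairs of members were correlated, in place of 1. Over all genes, library weights gave 5266 calls for TAC in ONOFF (3480 in the reported fit), 2355 for genotype after TAC (1306), 47 for genotype after sham surgery (23), 449 for the interaction (73) and 1294 for female versus male (653). TAC in Con gave 495 calls (948) with only the groups compared, 581 without the 2 Xist-poor libraries and 598 without all 5. Genotype after sham surgery gave 13 with no filter, 12 with only the groups compared, 2 without the 3 libraries with many zeros, 4 without all 5 and 3 to 49 with 1 library left out. The interaction gave 30 with no filter, 120 with quantile normalization, 32 with the library name number as a random block, 128 without the 3 libraries with many zeros, 149 without the 2 Xist-poor, 440 without all 5 and 9 to 250 with 1 library left out. Female versus male gave 427 without the 2 Xist-poor libraries and 359 with the atrial covariate. No label says that a replicate number pairs mice: same-numbered libraries of different groups had residual correlations from −0.189 to 0.239 (median 0.004). With the replicate block genotype after sham surgery gave 14 calls and its sex difference 1 (also 1 with the random block, and 0 to 2 with 1 library left out), and no call of a member changed. The signs that turned all belong to uncalled values, on the log2 scale. With library weights these were H19 (interaction 0.0686), Meg3 (genotype after sham −0.0347), Rian (genotype after sham −0.0763) and Cdkn1c (TAC in Con −0.0732, genotype after sham 0.0143). With the atrial covariate they were H19 (female versus male 0.10), Igf2 (female versus male 0.0302), Meg3 (TAC in ONOFF 0.0335, TAC in Con 0.16, genotype after TAC −0.11, interaction −0.13) and Cdkn1c (TAC in Con −0.0434). With quantile normalization they were Dlk1 (genotype after sham −0.16) and Meg3 (interaction −0.0295). Without the 3 libraries with many zeros they were Igf2 and Rian (genotype after sham 0.0478 and −0.0722) and Meg3 (interaction −0.0299). Without all 5 they were H19 and Meg3 (female versus male 0.0311 and −0.0251) and Igf2 and Rian (genotype after sham 0.0478 and −0.0722). Without the 2 Xist-poor libraries H19 was 0.0258 (female versus male). Leaving out 1 library gave female versus male values of −0.13 to 0.0902 for H19 and −0.0793 to 0.0248 for Igf2. For genotype after sham surgery it gave −0.12 to 0.0228 for Igf2, −0.13 to 0.22 for Meg3, −0.0471 to 0.14 for Rian, −0.0657 to 0.0429 for Cdkn1c and −0.0003 to 0.23 for Mest. For genotype after TAC it gave −1.14 to 0.091 for Dlk1 and −0.0224 to 0.23 for Meg3, and for the interaction −0.11 to 0.24 for Meg3. For TAC it gave −0.0861 to 0.58 for Dlk1 and −0.19 to 0.0411 for Mest in ONOFF mice, and −0.0565 to 0.0772 for Cdkn1c in Con mice. The cause of these shifts was not tested. Depth, unknown here, limits Mirg and Dlk1 most.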
